A study of Mus musculus with 16 samples.

Results

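Of the 2992 regions of E14 embryonic stem cells (ESC) that carried peaks of both total Jarid2 and Jarid2-K116me2 and stayed below the score at which the peak caller saturates, 428 (14.3%) scored at least 1.5 times higher for total Jarid2. These regions were chosen by the peak scores themselves. Peaks of the total Jarid2 list (4992) and of the Jarid2-K116me2 list (4502) were merged where they shared 1 bp or more on mm9, which gave 5001 regions, 3896 of them common to both lists. A region was kept when its highest score was under 3100 for each antibody and the Jarid2 score was at least 1.5 times the Jarid2-K116me2 score. The score is the one MACS writes for a peak, which grows with the significance of the enrichment over the input and is not normalized for depth. The other 2564 common regions under 3100 are the reference in what follows, and 259 of them scored at least 1.5 times higher for Jarid2-K116me2.

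The peak lists come from 1 library per antibody, made from E14 cells (a mouse ESC line) grown in serum with LIF, so the scores and the 2 lists have no replicate error. The other 12 libraries with peaks are ChIP-seq of H3K27me3 in ESC lacking Jarid2 (Jarid2KO), in the same Jarid2 -/- cells carrying a BAC for wild-type Jarid2 (WT rescue) and in those cells carrying a BAC for Jarid2 with K116 replaced by alanine (K116A rescue). All of these cells therefore lack the endogenous Jarid2. They were taken as ESC in serum with LIF or as embryoid bodies (EB) formed in hanging drops, 8 days after LIF removal, with 2 libraries per line and stage. Of the 16 samples of the study, the 2 inputs served only for calling peaks. The deposited lists hold between 1478 (ESC WT rescue replicate 1) and 14125 (EB Jarid2KO replicate 2) H3K27me3 peaks, and the read depth behind them is not in the lists. By the paper's read numbers, ESC WT rescue replicate 1 had the most reads of the ESC libraries. For ESC against EB the paper took its peak set from the replicates numbered 2, which it ranks as higher in quality. Both replicates were weighed alike here.

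Polycomb Repressive Complex 2 (PRC2) deposits methylation on lysine 27 of histone H3, a mark of silent developmental genes in ESC. Jarid2 is a cofactor of PRC2 that binds DNA and helps to bring the complex to its targets, which in ESC are mostly CpG-rich promoters. PRC2 also methylates Jarid2 itself at K116, and the antibody against Jarid2-K116me2 recognizes the dimethylated form.

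The regions with the highest ratios lay away from promoters and held few CpG. The sequences around the midpoint of the Jarid2 peak are shown for the 4 highest ratios, to let the base composition be seen (200 bases, mm9, plus strand, 5′ to 3′, CpG in capitals).

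Gm13991 side, chr2:116375565-116375764: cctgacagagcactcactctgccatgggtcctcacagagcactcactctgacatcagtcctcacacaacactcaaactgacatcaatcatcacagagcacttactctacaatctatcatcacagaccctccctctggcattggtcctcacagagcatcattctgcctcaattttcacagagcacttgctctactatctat
Lmx1b intron, chr2:33434233-33434432: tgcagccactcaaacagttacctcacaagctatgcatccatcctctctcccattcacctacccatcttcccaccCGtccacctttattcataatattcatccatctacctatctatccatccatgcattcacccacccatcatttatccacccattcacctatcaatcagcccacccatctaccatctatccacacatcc
Myof side, chr19:37954084-37954283: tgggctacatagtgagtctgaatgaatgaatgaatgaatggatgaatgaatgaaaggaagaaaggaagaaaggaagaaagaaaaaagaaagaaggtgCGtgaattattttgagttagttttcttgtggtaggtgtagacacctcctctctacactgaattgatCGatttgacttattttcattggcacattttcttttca
n-R5s175 side, chr5:119507707-119507906: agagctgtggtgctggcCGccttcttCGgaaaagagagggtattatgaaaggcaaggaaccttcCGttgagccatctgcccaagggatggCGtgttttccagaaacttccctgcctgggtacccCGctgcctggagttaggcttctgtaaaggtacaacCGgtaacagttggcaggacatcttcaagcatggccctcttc

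These stretches hold 0, 1, 2 and 6 CpG. The first is made of a repeated unit, and 60.9% of the words of 12 letters in the whole region (chr2:116373515-116377815) occurred more than once in it. This intergenic region lies 21439 bp from the start of the pseudogene Gm13991. Its Jarid2 score was 1511.5 against 187.94 for Jarid2-K116me2, a ratio of 8.04 that was the highest of all. The next region (chr2:33432043-33436623) is in an intron of Lmx1b, which encodes a LIM homeodomain factor, 53454 bp from its TSS, and its scores were 941.64 and 130.12 (ratio 7.24). The third (chr19:37952608-37955759) is intergenic, 163883 bp from Myof, with scores of 1055.66 and 148.12 (ratio 7.13). The fourth (chr5:119506161-119509452) is 239447 bp from the nearest annotated start, with scores of 640.33 and 92.71 (ratio 6.91). In all 4 regions the ratio of observed to expected CpG, computed from the C and G content of the region, was low, at 0.0479, 0.226, 0.219 and 0.244. The median over the other common regions was 0.600.

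A few promoters reached nearly as high a ratio. They are shown in the same way for the 3 highest with a protein-coding TSS within 1 kb.

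Id2, chr12:25781612-25781811: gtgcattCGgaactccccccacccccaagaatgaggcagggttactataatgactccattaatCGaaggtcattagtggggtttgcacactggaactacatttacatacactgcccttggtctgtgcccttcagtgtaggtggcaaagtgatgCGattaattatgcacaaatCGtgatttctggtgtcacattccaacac
Vipr2, chr12:117316406-117316605: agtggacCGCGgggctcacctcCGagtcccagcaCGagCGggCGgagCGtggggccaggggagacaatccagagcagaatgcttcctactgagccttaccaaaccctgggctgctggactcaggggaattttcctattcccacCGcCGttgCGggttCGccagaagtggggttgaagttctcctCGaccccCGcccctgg
Ets1, chr9:32503426-32503625: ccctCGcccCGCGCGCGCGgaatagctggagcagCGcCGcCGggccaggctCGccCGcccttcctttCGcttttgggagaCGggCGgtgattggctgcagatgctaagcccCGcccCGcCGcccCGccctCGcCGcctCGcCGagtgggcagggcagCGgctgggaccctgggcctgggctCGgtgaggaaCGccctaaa

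These hold 4, 13 and 25 CpG. Id2, an inhibitor of basic helix-loop-helix factors, had a Jarid2 score of 1041.04 and a Jarid2-K116me2 score of 192.44 (ratio 5.41, chr12:25779535-25783889, TSS at 755 bp). Vipr2, a receptor of vasoactive intestinal peptide, had scores of 451.58 and 93.18 (ratio 4.85, chr12:117315636-117317375). Ets1, a founding member of the ETS family of transcription factors, had scores of 717.76 and 154.79 (ratio 4.64, chr9:32501927-32505125). Also among the 10 highest ratios were a region 41907 bp from En2, an engrailed homeobox gene (699.27 against 141.94, ratio 4.93), and one next to the lincRNA 5730457N03Rik and 7876 bp from Evx1 (629.32 against 136.11, ratio 4.62). Thus 7 of these 10 regions were over 1 kb from any TSS and 5 over 10 kb.

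**Figure D1:**
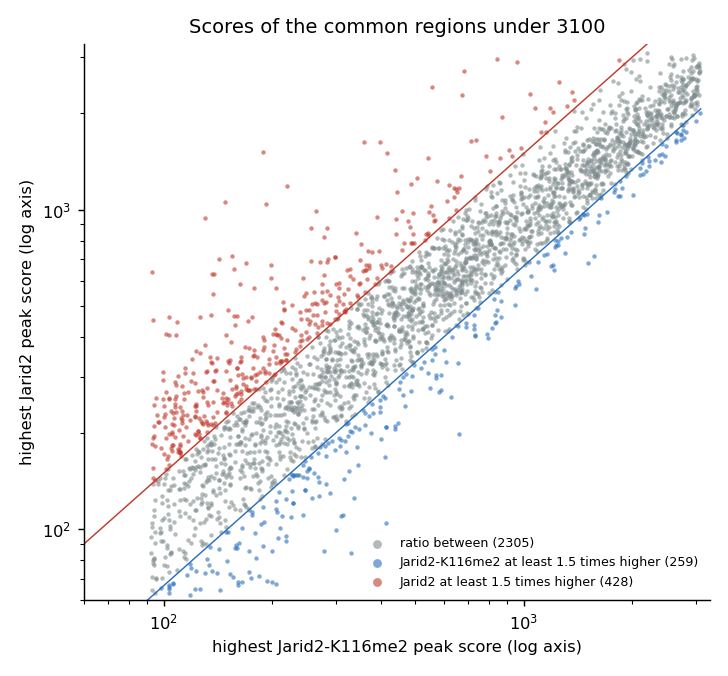
Highest score of the Jarid2 peak (vertical, log axis) against that of the Jarid2-K116me2 peak (horizontal, log axis) in each of the 2992 common regions under 3100. Red points are the 428 regions with a Jarid2 score at least 1.5 times higher, blue points the 259 with a Jarid2-K116me2 score at least 1.5 times higher, and the lines mark both thresholds.

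Most of the 428 regions had low scores and ratios close to the threshold. Their Jarid2 score had a median of 377 (142 to 2962) and their Jarid2-K116me2 score a median of 181 (92.4 to 1841), and the ratio had a median of 1.87. The ratio was under 2 in 264 regions, 2 to under 3 in 125 and 3 or more in 39. Over all 2992 common regions under 3100 the median ratio was 0.979. The 3 regions just inside the threshold were those nearest to Atg7, Gm16558 and Sdccag8, with ratios of 1.502, 1.502 and 1.5045. The 3 just outside it were at B2m, Nod1 and Arsj, with ratios of 1.4995, 1.4992 and 1.4984. No replicate separates these neighbours. The same region can also be split differently in the 2 lists. More than 1 Jarid2-K116me2 peak fell in 78 of the 428 regions (18.2%) against 99 of the other 2564 (3.86%), while more than 1 Jarid2 peak fell in 4 and 30.

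The widths followed the scores. The regions had a median width of 1814 bp, against 1973 bp in the other common regions. Their Jarid2-K116me2 peaks covered a median of 993 bp, against 1583 bp. The Jarid2 peaks were wider than the Jarid2-K116me2 peaks in 426 of 428 regions and in 2291 of the other 2564. The midpoints of the strongest peak of each antibody lay a median of 188 bp apart, against 113 bp. Since the regions were chosen by score, and the width of a called peak moves with its score, these values are a description of the choice.

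Some of the highest Jarid2 scores among these regions were found in broad domains. The highest, 2962.25 against 840.44, was in a region of 5306 bp at 94150 bp from the microRNA gene Mir148a (chr6:51123106-51128411). A region in an intron of Rgma, a repulsive guidance molecule, scored 2944.54 against 1840.99. A region 9266 bp from Zic4, a zinc finger factor of neural development, scored 2904.07 against 959.60. The widest of all, with 11836 bp, lay 11371 bp from the imprinted gene Peg12 (chr7:69592107-69603942), scored 2713.52 against 680.69 and had a CpG ratio of 0.116. At the TSS of Cacna1i, a T-type calcium channel subunit, the scores were 2514.01 and 1253.34.

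Fewer of the 428 regions sat on promoters. In 228 of them the midpoint was no more than 1 kb from a TSS (53.3%, 95% Wilson interval 48.5 to 57.9), against 1872 of 2564 other common regions (73.0%, 71.3 to 74.7). These intervals cover the counting of regions only. The nearest TSS was 1 to 10 kb away in 123 regions (28.7%) against 384 (15.0%), and over 10 kb away in 77 (18.0%) against 308 (12%). The median distance was 838 bp against 434.5 bp. Of the regions with a ratio of 3 or more, 7 of 39 had a TSS within 1 kb, compared with 157 of 264 under a ratio of 2. The midpoint was in an exon in 27.8% of the regions (42.5% of the others), in an intron in 40.9% (37.2%) and intergenic in 31.3% (20.2%). The nearest start belonged to a protein-coding gene in 80.8% against 88.5%, and to a lincRNA in 6.31% against 3.74%.

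The regions were often found directly beside another enriched region. Another merged region lay within 1 kb of 132 of the 428 (30.8%) and of 291 of the other 2564 (11.3%), and within 10 kb of 195 (45.6%, Wilson interval 40.9 to 50.3) and 527 (20.6%, 19 to 22.2). Of the 132 neighbours within 1 kb, 27 were common regions at or over 3100, 37 carried Jarid2 peaks only, 27 were again regions scoring higher for Jarid2 and 41 were other common regions. A common region at or over 3100 was within 10 kb in 64 cases (15.0%), against 97 (3.78%). Of the 10 regions with the highest ratios, only those of Vipr2 and Ets1 had no other region within 10 kb.

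The distance to promoters moved with these neighbours. Where no other region lay within 10 kb, 173 of 233 regions (74.2%, Wilson interval 68.3 to 79.4) had a TSS within 1 kb, close to the 1603 of 2037 (78.7%, 76.9 to 80.4) in the other common regions, and the intervals overlap. Where a neighbour was within 1 kb the shares were 25.8% (19.1 to 33.8) and 53.6% (47.9 to 59.3). Whether the division of wide domains into several called peaks plays a part in this was not tested. The share also moved with the score. It went from 67.6% of 37 regions with a Jarid2 score under 200 to 58.3% of 240, 49.0% of 102 and 26.5% of 49 in the bands from 200, 500 and 1000, whereas in the other common regions it stayed between 67.9% and 76.5%. Without a neighbour the first 3 bands were at 80.0%, 76.2% and 77.1%, against 74.9%, 76.7% and 82.2% in the other common regions, and the last at 30.8%, from 13 regions, against 79.5%.

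**Figure D2:**
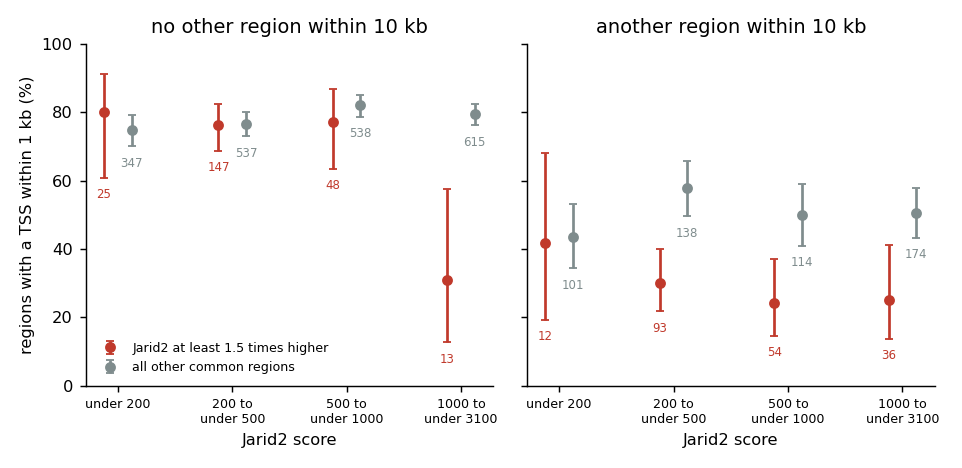
Share of regions with a TSS within 1 kb (vertical, %) by band of Jarid2 score (horizontal), for regions without (left) and with (right) another merged region within 10 kb. Points are shares, bars 95% Wilson intervals and numbers the regions in each band. Red is for regions with a Jarid2 score at least 1.5 times higher and grey for all other common regions under 3100. Without a neighbour the red share is far below the grey one only in the highest band (30.8% from 13 regions), while with a neighbour it is lower in all bands from 200 upward.

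Some of the regions away from promoters flanked genes of developmental transcription factors, the best known class of PRC2 targets. Among the 200 regions over 1 kb from a TSS, the nearest TSS belonged to such a factor in 30 (15.0%), against 45 of 692 (6.5%) in the other common regions. The 30 regions lay near 25 genes, at a median of 7138 bp, and 29 of them had another region within 10 kb. Counting only regions with such a neighbour, the shares were 20.7% of 140 and 13.6% of 258. Without a neighbour they were 1 of 60 (1.67%) and 10 of 434 (2.30%). Near Gata2, a factor of blood and endothelial development, a region 73 bp beside a common region at or over 3100 scored 544.07 against 136.72 (chr6:88152918-88155592, ratio 3.98). Near Pax1, a paired box factor of the axial skeleton, one scored 460.34 against 125.71 (chr2:147195094-147197283, ratio 3.66). A region 9886 bp from Msx2 scored 611.76 against 198.54 (ratio 3.08), and the region at the TSS of this homeobox gene 2073.07 against 1074.1 (ratio 1.93). Flanks of Nkx3-2, Irx4 and Hoxb1 were stronger, with Jarid2 scores of 1955.56, 2080.31 and 847.26 and Jarid2-K116me2 scores of 868.45, 1185.09 and 341.39. The genes were matched by symbol, and 1 of the 25 is the antisense transcript Vax2os1. Signalling genes went the other way over 1 kb from a TSS, at 3 regions (1.5%) against 31 (4.48%). Ion channels and transmitter receptors were at 8 (4.0%) against 26 (3.76%) there. Transporters were at 2 (1.0%) against 7 (1.01%), and adhesion and matrix genes at 5 (2.5%) against 21 (3.03%).

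Within 1 kb of a TSS the gene classes were close to those of the other common regions. Developmental transcription factors accounted for 5 of 228 regions (2.19%) against 32 of 1872 (1.71%): Id2, Neurod1 (819.79 against 279.15), Hes6 (1206.51 against 484.59), Msx2 and Sox10. Signalling genes were at 10 (4.39%) against 94 (5.02%), and included the ephrin receptor Epha3 (708.67 against 299.35), the insulin-like growth factor binding protein Igfbp4 (586.41 against 275.57), the growth factor Pdgfa (932.01 against 442.69) and the axon guidance cue Sema3a (198.81 against 103.17). Ion channels and transmitter receptors were at 10 (4.39%) against 112 (5.98%), with the orphan receptor Gpr63 (626.59 against 279.24) and the potassium channel subunits Kcnj5 (369.73 against 172.3) and Kcns1 (249.83 against 136.72). Transporters were at 7 (3.07%) against 55 (2.94%). Among them were the citrate transporter Slc13a5 (570.29 against 178.37), the glucose transporter Slc5a1 (216.01 against 96.39) and the glycine transporter Slc6a5 (2306.81 against 1043.1). Adhesion and matrix genes were at 6 (2.63%) against 28 (1.5%), with the protocadherin Pcdha11 (691.12 against 256.52), Cntn1 (243.23 against 99.8) and the integrin Itgb3 (506.67 against 257.4). No region had a TSS of the listed imprinted, pluripotency or germ cell genes within 1 kb, against 5, 1 and 0 in the other common regions. Farther than 1 kb, pluripotency factors (Tbx3 and Prdm14) were nearest to 3 regions (1.5%) against 2 (0.289%). Imprinted genes were nearest to 1 (0.5%) against 2 (0.289%) there. The Tbx3 regions lie in 1 stretch and are also counted among the developmental transcription factors over 1 kb from a TSS.

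CpG content was lower in these regions, also at equal distance to promoters. The ratio of observed to expected CpG had a median of 0.529 against 0.600, and was under 0.4 in 83 of 428 regions (19.4%, Wilson interval 15.9 to 23.4) against 111 of 2564 (4.33%, 3.61 to 5.19). Within 1 kb of a TSS the medians were 0.563 and 0.608. They were 0.472 and 0.579 at 1 to 10 kb, and 0.427 and 0.572 over 10 kb, where 40.3% of the regions were under 0.4 against 7.79% of the others. The GC content differed less, with medians of 55.3% and 57.4%. The share of CpG-poor regions rose with the ratio of the scores, from 13.3% under a ratio of 2 to 25.6% from 2 to under 3 and 41.0% at 3 or more. In regions without a neighbour within 10 kb it was 9.01% against 2.45%. The 259 regions scoring higher for Jarid2-K116me2 were on the other side, with a median CpG ratio of 0.671 and 2.32% under 0.4.

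**Figure D3:**
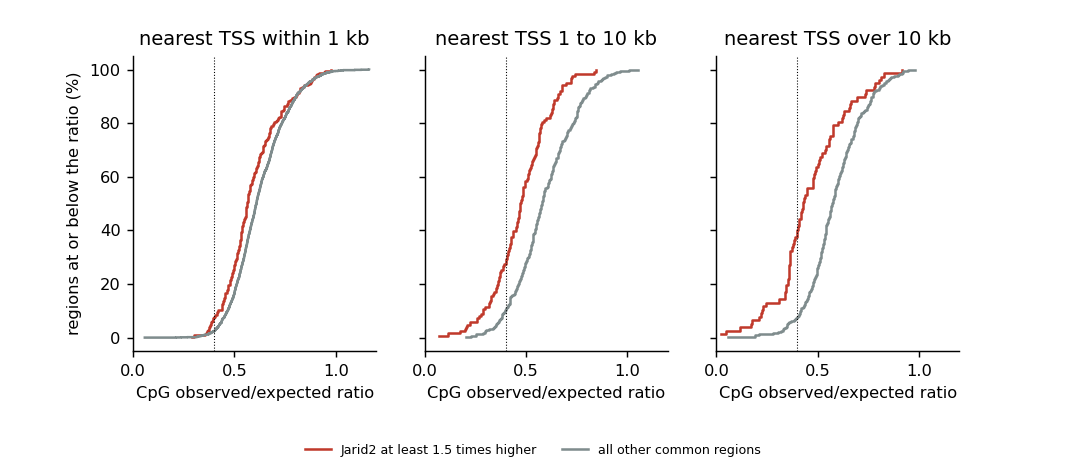
Cumulative share of regions (vertical, %) by ratio of observed to expected CpG (horizontal), split by distance to the nearest TSS. Red lines are regions with a Jarid2 score at least 1.5 times higher and grey lines all other common regions under 3100, the dotted line marks 0.4, and the red line lies to the left of the grey one by the most over 10 kb from a TSS.

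Part of the regions cannot be placed with certainty, since reads that fit several locations were assigned to 1 of them. Near copies elsewhere in the genome covered 50% or more of 33 of the 428 regions (7.71%) and of 156 of the other 2564 (6.08%). Between Hrh1 and Atg7 on chromosome 6, 11 regions scored higher for Jarid2, all of them copied, and 10 other common regions lay in the same interval. A stretch on chromosome 4 (chr4:88400748-88421444) held 7, all copied, and 3 copied regions lay beside Fcgr3. Without copied regions the share with a TSS within 1 kb was 54.7% against 74.7%.

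In the cells of the H3K27me3 experiment the regions were marked nearly as often as the other common regions. The share overlapped by an H3K27me3 peak was 36.7% and 81.5% in the 2 ESC Jarid2KO libraries, 7.94% and 67.3% in ESC WT rescue, and 48.6% and 76.9% in ESC K116A rescue. In EB it was 47.2% and 52.6% for Jarid2KO, 48.8% and 50.2% for WT rescue, and 54.2% and 64.0% for K116A rescue. Replicates of 1 ESC line thus lay far apart, and in ESC the share rose with the number of peaks in the list. In each library the share was set beside that of the other common regions. It was lower in 11 of 12 libraries, with a median difference of -3.32 percentage points, and in ESC K116A rescue replicate 2 it was higher by 0.114 points. In the 6 EB libraries the differences ran from -8.31 to -3.31 points. At promoters they were lower in 12 of 12 libraries (median difference -6.00 points), but in 4 of 12 at 1 to 10 kb from a TSS (median 2.17 points) and in 5 of 12 over 10 kb (median 0.974 points). The 12 libraries are read over the same regions and come from 3 lines, so these counts are given with no test. No library had a peak in 48 regions (11.2%) and all 12 had one in 27 (6.31%), against 12.2% and 6.94% of the other common regions.

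**Figure D4:**
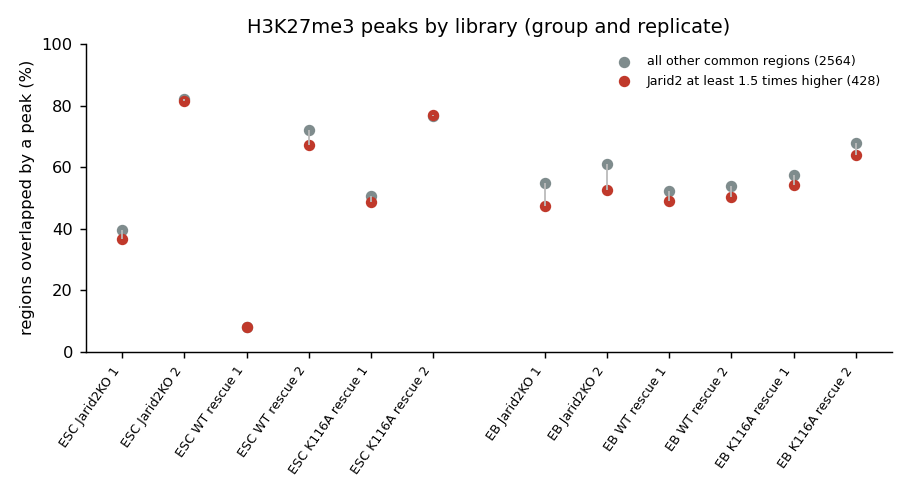
Share of regions overlapped by an H3K27me3 peak (vertical, %) in each of the 12 libraries (horizontal, group and replicate). Red points are the 428 regions with a Jarid2 score at least 1.5 times higher and grey points the other 2564 common regions under 3100. The points lie close together in every library, while ESC replicates of 1 line lie far apart.

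Some regions were marked throughout and others not at all. Among those with a peak in all 12 libraries, the highest ratio was that of the Lmx1b intron shown above, where the score of the overlapping H3K27me3 peaks was 46.0 to 121 (median 63.1) in the 6 ESC libraries and 51.9 to 119 (median 84.5) in the 6 EB libraries. The groups overlap. Next came a region near the lincRNA Gm16989, 6136 bp from Tcfap2a, with 59.7 to 139 (median 93.8) in ESC and 87.2 to 208 (median 111) in EB, and the region near Peg12, with 56.9 to 102 (median 78.2) and 47.0 to 119 (median 64.9). Among those with no peak in any library, the highest ratios were a copied region near Hrh1 (460.84 against 103.2, ratio 4.47), a region of the protocadherin gamma cluster near Pcdhgc5 (319.31 against 114.38, ratio 2.79) and one in an intron of Tcf7l2, a transcription factor of the Wnt pathway (300.6 against 109.48, ratio 2.75).

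The H3K27me3 scores were then compared between EB and ESC, each stage as the mean of Jarid2KO, WT rescue and K116A rescue. The lowest score of a list ran from 28.7 (EB Jarid2KO replicate 2) to 43.9 (ESC WT rescue replicate 1). The step from no peak to a peak thus differed between libraries. The regions compared were those with a peak in at least 2 libraries, 4048 in all and 348 of the 428. With limma and an FDR of 5%, 18 of the 348 were called (5.17%), 8 higher and 10 lower in EB. Over all 4048 regions 131 were called (3.24%), 93 higher (2.3%) and 38 lower (0.939%). Regions higher in EB were thus as frequent here as over all regions, at 2.3%, and regions lower in EB were at 2.87%. These calls depended on single libraries. Leaving out 1 library at a time gave 3 to 119 called regions. Without ESC WT rescue replicate 2 there were 119 (104 of them higher), which is 34.2% against 40.1% of all 4048. Without ESC WT rescue replicate 1 there were 35 (25 lower), or 10.1% against 8.03%. The count was 3 to 5 without any 1 of the 6 EB or the 2 ESC K116A libraries. Without ESC Jarid2KO replicate 1 the calls were 6 higher and 11 lower, and without replicate 2 they were 18 higher and 3 lower. The median log2 difference of all 4048 regions was 0.93, and when each library was centred on its median, 28 of the 348 were higher (8.05%, against 5.68% of all) and 113 lower (32.5%, against 25.9% of all). The balance of higher and lower regions thus changed with the centring, over all regions as in these, and with the library left out. For WT rescue alone, EB against ESC, 0 of the 348 and 0 of all 4048 were called. With each library centred on its median, 56 of the 348 were called there, all lower (16.1%, against 13.3% of all). Centring subtracts the median of a library from every region, also from those without a peak. The share of the 428 regions with a peak ran from 7.94% (ESC WT rescue replicate 1) to 81.5% (ESC Jarid2KO replicate 2). The amount subtracted thus differed between libraries. Whether the centred calls come from shifted values of regions without a peak was not tested.

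The regions called in all 12 fits with 1 library left out were 3, each with few or no peaks in ESC. In an intron of Prkar2a, which encodes a regulatory subunit of protein kinase A (chr9:108594518-108595649, TSS at 610 bp), the score was 0 in all 6 ESC libraries and 40.1 to 129 (median 78.2) in EB. In ESC all values were thus at the value set for no peak, with no spread. The log2 difference was 5.95 ± 0.73 (SE, limma adjusted p = 0.0015). Next to a common region at or over 3100, 7011 bp from D130058E05Rik (chr1:91817780-91821816), 1 ESC library had a peak (42.8) and the EB libraries ranged from 40.6 to 193 (median 140), which gave 6.29 ± 0.81 (limma adjusted p = 0.0020). The lowest EB value was just below the single ESC value. At the TSS of Kdelr3, a receptor that retrieves proteins to the endoplasmic reticulum (chr15:79346057-79347982), 2 ESC libraries had a peak, with 64.9 the highest, and the EB libraries ranged from 58.3 to 173 (median 102), for a difference of 5.73 ± 0.84 (limma adjusted p = 0.0048). Since bases without a peak were set to 1, these differences depend on that floor and are no measure of fold. The Prkar2a and D130058E05Rik regions had peaks in 0 and 1 of the ESC libraries. They thus passed the filter of 2 libraries only through EB, where they are high, and their p-values are no independent support.

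The other called regions lost the call in 3 or more of the 12 fits. Among those higher in EB were regions at Tradd, an adaptor of the TNF receptor, at Lama1, a laminin chain, and near Gm2301 and 1700092C17Rik. Most of the called regions passed the filter of 2 libraries only through the stage where they were high. The p-values of those regions are no independent support. Lama1, for example, had peaks in 0 ESC and 5 EB libraries, and Tradd and Gm2301 each had a peak in 1 ESC library. Lower in EB was a pair of adjacent regions at Prickle1, a gene of planar cell polarity. In the region with the TSS the score was 0 to 118.3 (median 92.6) in ESC and 0 in all EB libraries (log2 difference -5.42 ± 1.08, limma adjusted p = 0.023), and 1 of the 6 ESC libraries had no peak. This region passed the filter only through ESC, and its EB values were all at the floor, with no spread. Its p-value is therefore no independent support. In the second (chr15:93351748-93356462, ratio 4.55) the score was 56.0 to 118.3 in ESC and 0 to 42.6 in EB (-4.14 ± 0.92, limma adjusted p = 0.034), and the groups do not overlap. Both regions had the same score in 5 of the 6 ESC libraries, so they are not separate observations. Also lower were regions at Plekho1, Gm4221 and 5930403N24Rik and near Aaas, Gm9530, Gm10146, Ankrd33 and Pnmal2. In 7 of the 10 lower regions every ESC library had a peak except WT rescue replicate 1, the shortest list, and no EB library had one. These 7 thus passed the filter only through ESC.

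**Figure D5:**
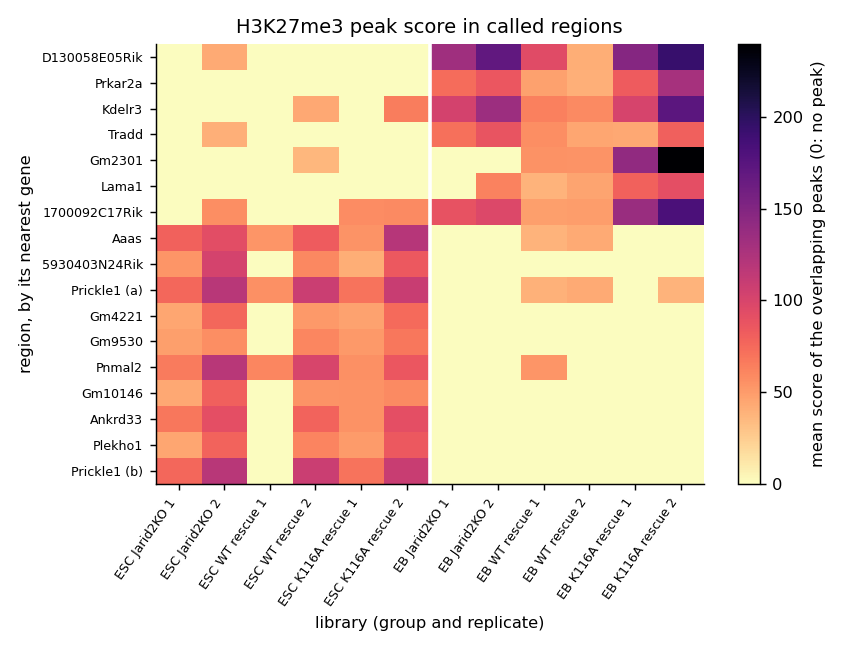
Mean score of the overlapping H3K27me3 peaks (colour, 0 for no peak) in 17 of the 18 regions called between EB and ESC (vertical, by nearest gene) in each of the 12 libraries (horizontal, ESC left of the white line, EB right). The 7 upper regions were higher and the 10 lower ones lower in EB, and Prickle1 (b) is the region with the TSS.

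Between lines, no region was called when the scores were fitted with all libraries and no centring. For K116A rescue against WT rescue in EB limma gave 0 of 348 (0% of all 4048), with 30 at an unadjusted p under 0.05, and for Jarid2KO against WT rescue in EB 0 (0%), with 29. With each library centred on its median, 16 of the 348 (4.6%, against 2.72% of all) and 21 (6.03%, against 3.61%) were called. Here too, centring shifted the regions without a peak by an amount that differed between libraries. By the paper's read numbers, both EB WT rescue libraries had fewer reads than every other EB library. Line and read depth therefore cannot be told apart in EB. In ESC the same comparisons gave 0 (0%), with 4 and 0 at an unadjusted p under 0.05. These counts rested on ESC WT rescue replicate 2. Without it the lone WT rescue library in ESC was the one with the shortest list, and 92 of the 348 (26.4%, against 30.1% of all) were called for K116A rescue and 98 (28.2%, against 31.2%) for Jarid2KO, all of them higher than in WT rescue. The lone library is assumed in this fit to vary like the other groups.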

How the data were processed

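Per the labels, ChIP-seq was done on a total of 16 samples, and 14 with peaks were used here. The authors mapped single reads to mm9 with Bowtie2 2.1.0, placed reads that fit several locations at 1 of them, removed duplicates, and called peaks per sample against input with MACS 1.4.2 (Jarid2 and Jarid2-K116me2) or MACS2 2.0.10 in broad mode (H3K27me3), and HOMER 3.17 is also named in the processing notes. The deposited lists give for each peak its position and a score, the one of the peak caller, with no summits, read numbers, fold enrichments or q-values. The lists do not hold the read depth, the read numbers that the study gives per library were not used in any fit, and no interval could be set on a single score.

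Peaks were merged in Python 3.11.15 (pandas 2.3.3, scipy 1.17.1). Distances from the region's midpoint were taken to all GENCODE transcripts of NCBIM37, whose chromosome lengths fit the peaks. Sequences are from that build. Near copies were tiles of 500 bp with a minimap2 2.31 match of at least 90% identity over at least 90%. Shares have 95% Wilson intervals. For H3K27me3, the log2 of the mean score over the region, with bases without a peak set to 1, was fitted with limma 3.58.1 (R 4.3.3) over the 6 groups, on regions with a peak in at least 2 libraries, since the q-values planned for were not in the lists. P-values were adjusted by the Benjamini-Hochberg method over all 4048 regions. The labels do not say whether replicates are separate cultures, and the paper calls them independent biological samples.

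Named regions were the 10 with the highest ratio, the 5 with the highest Jarid2 score, 3 on each side of the threshold, up to 4 per gene list by ratio, and the 3 highest ratios with a peak in no or in all 12 libraries. The regions called between EB and ESC, and those near transcription factors over 1 kb from a TSS, were named after their values were seen. Gene lists were matched by symbol prefix. Some named regions are not reported here. The members and lists were chosen with earlier results of these data known. Merging and the limma fit were tested on simulated data. The alternatives tried were other ratios, scalings, overlaps, distances, filters and floors, a replicate block, and leaving out libraries.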

Additional observations from a re-analysis of the deposited data

How the results depend on the processing

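The number of regions scoring higher for Jarid2 was 164 at a ratio of 2, 735 at a lower threshold between 1 and 1.5, 235 when peaks had to overlap by 50% of each, and 197 with a Jarid2-K116me2 score of at least 200. It was 460 with scores scaled to a median ratio of 1 and 377 with summed scores. The share with a TSS was 45.1% for protein-coding transcripts (68.1% in the other common regions), 74.5% within 5 kb (84.3%), 82.0% within 10 kb (88.0%) and 74.2% without a neighbour (78.7%, chosen after seeing the data). The H3K27me3 shares were lower than in the other common regions in 10 of 12 libraries with 50% of the region overlapped and with a score of at least 50. An alternative on q-values was not run, since the lists hold none.

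For EB against ESC, the fit with a replicate block called 39 regions instead of 18 (11.2%, against 9.24% of all regions tested). The labels do not tie replicate numbers together, and only 2 of 15 correlations of deviations between same-numbered libraries were over 0.1 (-0.036 to 0.432), so the numbers were not taken as pairs. Centring gave 141 (40.5%, against 31.5%), centring with the replicate block 125 (35.9%, against 29.5%), and a peak in at least 6 libraries 9 (3.77%, against 1.99%). Leaving out 1 library gave 3 to 119. With a single replicate number kept and the lines as replicates, 36 regions were called without replicate 1 (32 lower; 10.3%, against 9.78%) and 32 without replicate 2 (all higher; 9.2%, against 10.1%). Adding 30 in place of the floor gave 19 (17 higher; 5.46%, against 4.4%). Without ESC Jarid2KO replicate 1 or 2 the count was 17 or 21 (4.89% and 6.03%, against 3.53% and 3.68%). For K116A against WT rescue in EB centring gave 16, and 13 with the replicate block (3.74%, against 2.54%), and leaving out 1 library gave 0. For Jarid2KO against WT rescue in EB the values were 21 and 18 (5.17%, against 3.31%), and 0 to 6 with 1 library left out, 6 without either ESC WT rescue library (1.72%, against 1.19%). The block alone left both at 0. Fitting the share of the region covered, in place of the score, called 17 of the 348 regions for EB against ESC (4.89%, against 3.38%). Between lines in EB it called 0 of the 348, against 0.346% of all for K116A rescue and 0.321% for Jarid2KO. For WT rescue alone, EB against ESC, it called 1 (0.287%, against 0.395%). The causes were not tested. The lists limit all of this to presence and score of called peaks, without reads.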

Other observations

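In windows of 1 kb around the midpoints, on both strands, the GA repeat GAGAGAGA was found in 71 of the 428 regions scoring higher for Jarid2 (16.6%) and in 292 of the 2564 other common regions (11.4%). The shares were 16.2% and 11.2% within 1 kb of a TSS and 17.0% and 12% farther away. The E-box CACGTG, a palindrome, was found in 16.1% and 17.6%, and the octamer ATGCAAAT, bound by POU factors, in 2.57% and 2.26%. These 3 motifs do not overlap each other in sequence. The windows held a median of 44 and 65 CpG. A match describes the letters of the window only.

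Regions made largely of repeated words of 12 letters (20% or more of the words occurring more than once) were 6 of the 428 (1.4%) and 9 of the 2564 (0.351%). They included both regions beside Gm13991, with 60.9% and 67.3%, 1 in Muc19 with 88.7%, and 2 of the copied regions near Hrh1, with 20.3% and 38.4%.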
